A study of Mus musculus with 16 samples.

Results

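The 10 genes described here drive or restrain the passage of a cell from G1 into S phase. They are the D cyclins Ccnd1, Ccnd2 and Ccnd3, the E cyclins Ccne1 and Ccne2, the kinases Cdk4 and Cdk6, and the kinase inhibitors Cdkn1a, Cdkn1b and Cdkn2c. They were taken by symbol from a table of raw read counts with 52636 mouse gene identifiers, and 9 of the 10 had enough reads to be tested. The cells were the mouse line CRAFR26, with the cell type label RSC, derived from embryonic stem cells that carry a c-RAF kinase construct which tamoxifen switches on and which activates ERK. All 16 libraries were of rRNA-depleted total RNA from cells kept in N2B27 medium with IWP2 and LIF. In every group the MEK inhibitor PD03 (PD0325901) of the routine medium had been exchanged for 250 nM of the FGF receptor inhibitor PD17 (PD173074) 48 h before. The group 0h had no further addition. The groups 2h and 4h had 250 nM 4-hydroxytamoxifen (4OHT) for 2 h and 4 h. The group rev had 4OHT for 4 h and then a MEK inhibitor for 2 h, at a dose the labels do not give. Each group had 2 libraries from clone 4 and 2 from clone 8, and the labels do not say whether the 2 libraries of a clone came from separate cultures, so the p-values measure the spread between these libraries. Each clone is 1 line, and a property of a clone cannot be told apart from its construct. No group had 4OHT for 6 h without the MEK inhibitor, so that in rev against 4h the inhibitor and 2 more hours cannot be told apart.

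D cyclins bind CDK4 or CDK6, and the active complexes phosphorylate the retinoblastoma protein, which then releases E2F factors that switch on genes of DNA replication. E cyclins act next, with CDK2. The CIP/KIP inhibitors p21 (Cdkn1a) and p27 (Cdkn1b) bind cyclin and kinase complexes, while the INK4 inhibitor p18 (Cdkn2c) binds CDK4 and CDK6 directly. In many cell types ERK signalling raises cyclin D expression, and mouse embryonic stem cells are known for a short G1 phase with little cyclin D.

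The libraries held 4.31 M to 10.44 M counts, of which 8 features above 1% each took 46.7% to 78.9%. Outside these features 1.30 M to 5.46 M counts remained, the fewest in library 1 of clone 8 at rev. Of 15 known ERK feedback and immediate-early genes, 13 were higher at 2h than at 0h, 13 were higher at 4h than at 0h, and 12 were lower at rev than at 4h. Their median log2 change at 4h against 0h was 3.66 in clone 4 and 1.29 in clone 8. On the third principal component, with 8.57% of the variance of the 500 most variable genes, all 0h and 4h libraries lay on one side and all 2h and rev libraries on the other. The 2h and rev groups were also the groups taken 2 h after the last addition of a compound, and the part of that split in any difference that crosses it was not tested. Marker genes of pluripotent cells summed to 1200 to 1910 CPM, the read counts of a gene scaled to a common library size. Markers of primed or formative epiblast summed to 46.1 to 156 CPM and those of primitive endoderm to 3.06 to 7.18 CPM over all libraries. Mesoderm markers summed to 0.303 to 1.66 CPM at 0h and 0.905 to 10.2 CPM at 4h, with Mesp1 at no more than 3 counts in any library, and trophoblast markers to 5.89 to 10.8 CPM at 0h and 6.74 to 23.9 CPM at 4h. Of the 5 fibroblast markers none had enough reads to be tested. The part of other cell types in the results was not tested, and in bulk RNA fewer cells of a type cannot be told apart from less RNA per cell.

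Promoter windows are shown for 4 genes, chosen because 3 of them changed with treatment while Cdk4 passed no comparison of groups over both clones. Each is the 250 bases before a transcription start in RefSeq, build GRCm38.p6, written 5′ to 3′ on the gene's strand. Capitals mark matches to the motifs searched on both strands. Cdk6 lies at chr5:3343643-3343892 (plus strand), Cdk4 at chr10:127063285-127063534 (plus strand), the first of the Cdkn1a windows at chr17:29090729-29090978 (plus strand) and Cdkn1b at chr6:134920151-134920400 (plus strand).
Cdk6: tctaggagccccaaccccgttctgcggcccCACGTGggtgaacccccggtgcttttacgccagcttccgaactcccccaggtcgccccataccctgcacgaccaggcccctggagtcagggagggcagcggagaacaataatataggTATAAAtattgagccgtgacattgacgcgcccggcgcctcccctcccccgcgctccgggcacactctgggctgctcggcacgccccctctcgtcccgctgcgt
Cdk4: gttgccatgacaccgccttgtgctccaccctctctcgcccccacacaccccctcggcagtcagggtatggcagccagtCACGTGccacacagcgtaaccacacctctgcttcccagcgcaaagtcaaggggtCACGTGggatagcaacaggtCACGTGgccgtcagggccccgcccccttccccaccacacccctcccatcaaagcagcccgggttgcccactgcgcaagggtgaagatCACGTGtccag
Cdkn1a: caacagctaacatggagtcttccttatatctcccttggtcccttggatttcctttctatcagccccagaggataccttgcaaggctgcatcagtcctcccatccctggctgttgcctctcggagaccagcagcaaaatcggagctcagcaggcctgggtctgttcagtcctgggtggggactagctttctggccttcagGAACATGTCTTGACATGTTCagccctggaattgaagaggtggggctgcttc
Cdkn1b: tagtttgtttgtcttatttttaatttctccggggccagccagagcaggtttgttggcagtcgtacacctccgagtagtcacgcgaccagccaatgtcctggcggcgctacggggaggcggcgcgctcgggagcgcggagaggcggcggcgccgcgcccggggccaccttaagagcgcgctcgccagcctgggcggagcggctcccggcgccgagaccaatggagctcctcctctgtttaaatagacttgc
In Cdk6 the capitals are an E-box (CACGTG), 220 to 215 bases before the start, and a TATA box (TATAAA), 103 to 98 bases before it. The Cdk4 window held 4 E-boxes, at 172 to 167, 118 to 113, 98 to 93 and 11 to 6 bases before the start. Of all 32851 windows of this length, 6.02% held an E-box and 12.4% a TATA box. In Cdkn1a the capitals are a p53 response element, 51 to 32 bases before this start, with at most 1 mismatch in its 20 bases. The search for that element was added after the sequence had been read, and 0.0761% of all windows held such a match. The Cdkn1b window held none of the motifs.
The other motifs searched were AP-1 (TGACTCA), CRE (TGACGTCA), ETS (CCGGAAG), E2F (TTTCCCGC or TTTGGCGC), EGR (GCGTGGG) and the CArG box. They were in 4.46%, 1.55%, 6.91%, 1.3%, 4.3% and 1.47% of all windows, in that order. Among the windows of the 7 members with a RefSeq promoter entry, one of Ccnd3 held an ETS match 138 to 132 bases before its start and that of Cdkn2c an EGR match 44 to 38 bases before its start. No promoter sequence is shown for Ccnd1, Ccnd2 and Ccne2.

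Before induction the 10 genes spanned a wide range of levels. CPM were scaled by TMM, edgeR's correction for composition, and divided by the length of all annotated exons of a gene for comparison between genes. Which transcripts were in use was not determined, so the order depends on that length. Ccnd3 had 80.8 CPM at 0h over 8.78 kb and Ccne1 had 39.3 CPM over 2.66 kb. On that scale Cdk4 led at 0h with a mean of 39.1 CPM per kb (36.9 to 40.5 over the 4 libraries), followed by Ccne1 at 14.8 (14.0 to 16.9). Cdkn1b at 9.80 (6.76 to 12.7), Ccnd3 at 9.20 (7.47 to 10.7) and Cdkn1a at 8.45 (7.39 to 9.45) overlapped and were not ordered beyond their spread. Ccnd1 had 4.32 CPM per kb (3.18 to 5.89) and Ccne2 1.99 (1.83 to 2.13). At the bottom, Cdkn2c had 0.394 (0.169 to 0.642), overlapping Cdk6 at 0.16 (0.0857 to 0.216), and Ccnd2 had 0.028 (0.0153 to 0.0425). All other neighbours in this order were apart in all 4 libraries.

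Against 0h, 3 of the 9 tested members were higher at 2h (Cdk6, Cdkn1a and Ccne2) and 2 were lower (Ccnd3 and Cdkn1b). Calls were made at an adjusted p under 0.05 in edgeR's quasi-likelihood test over 12742 genes with the clone as a covariate, where 9.49% of all genes were called higher and 7.48% lower. At 4h, 2 were higher than at 0h (Cdk6 and Ccnd2) and 1 was lower (Cdkn1b), against 7.35% and 5.56% of all genes. Between 2h and 4h, 3 members rose (Ccnd2, Ccnd3 and Cdk6) and 2 fell (Cdkn1a and Ccne2), with 5.78% and 6.36% of all genes called. From 4h to rev, 1 rose (Cdkn1a) and 3 fell (Ccnd2, Ccnd3 and Cdk6), with 4.5% and 5.1% of all genes called. Against 0h, rev had Cdk6 and Cdkn1a higher and Cdkn1b lower, with 5.51% and 4.94% of all genes called. Comparisons that share a group are not independent of each other. When counts were scaled by library totals instead, the count at 2h was 3 and not 5. Ccnd3, Ccne2 and Cdkn1b no longer passed and Ccnd2 did (adjusted p = 1.28e-06). The count for 4h against 2h was 2 and not 5. Over all genes the calls fell too, from 2162 to 446 at 2h against 0h and from 1547 to 385 at 4h against 2h.

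**Figure D1:**
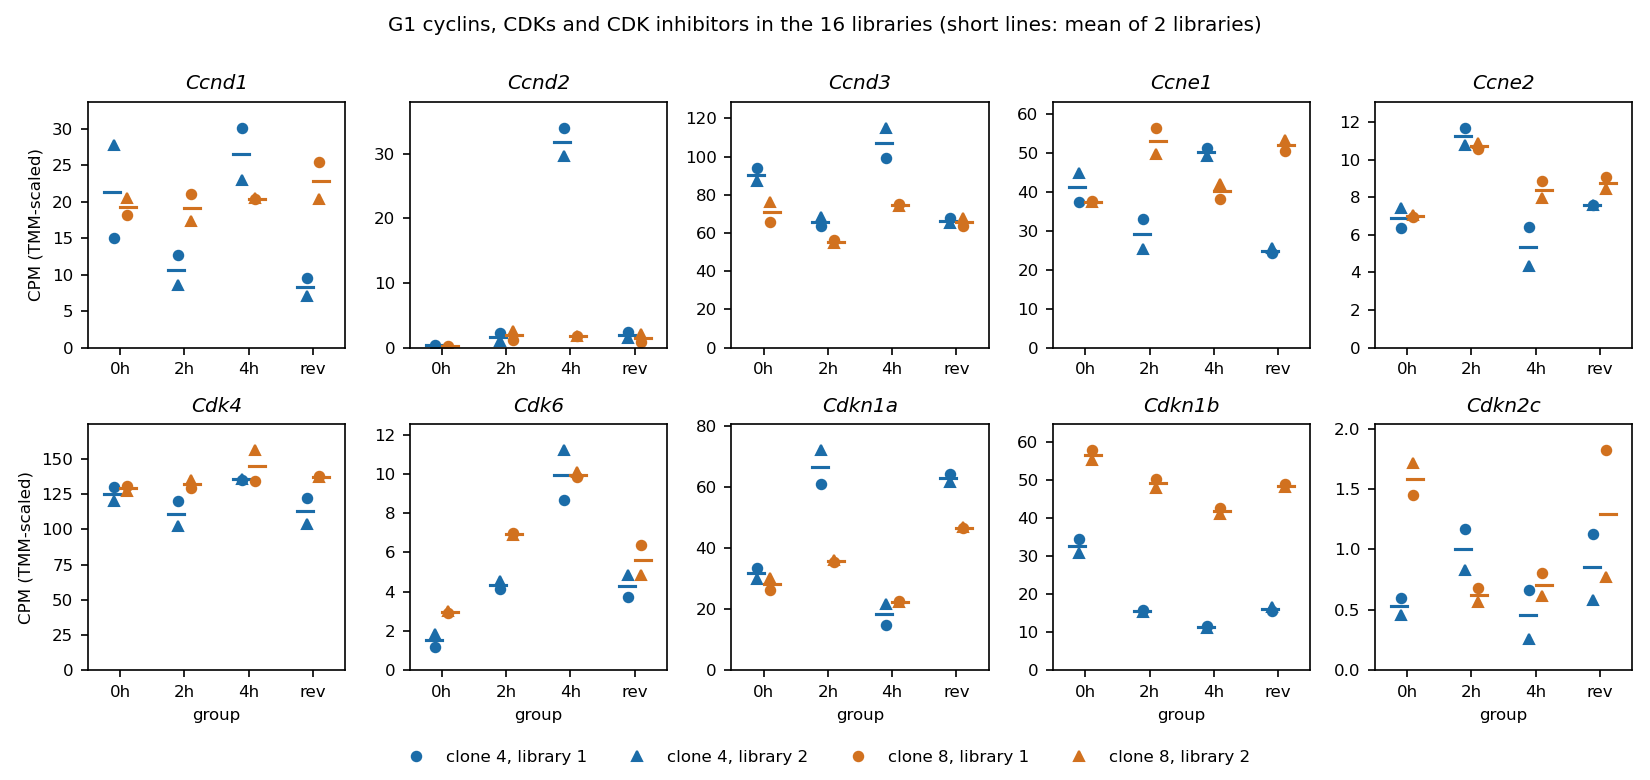
Level of each of the 10 genes (vertical axes, TMM-scaled CPM, scales differ between panels) in the 4 groups (horizontal axes), with clone 4 in blue and clone 8 in orange, circles and triangles for library 1 and 2, and short lines at the mean of the 2 libraries. Ccnd2 stood at 34.0 and 29.7 CPM in clone 4 at 4h and at no more than 2.52 CPM in all other libraries.

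Of the kinases, Cdk6 rose with induction in both clones and Cdk4 passed no comparison over both clones. Cdk6 and Cdk4 are the alternative partners of the D cyclins. Cdk6 (ENSMUSG00000040274, chr5:3341485-3531008, GRCm38) had 1.20, 1.82, 2.91 and 3.02 CPM at 0h, in the order clone 4 library 1, clone 4 library 2, clone 8 library 1 and clone 8 library 2. In the same order it had 4.15, 4.56, 6.99 and 6.87 CPM at 2h and 8.67, 11.2, 9.85 and 10.1 CPM at 4h. After the MEK inhibitor it had 3.73, 4.85, 6.36 and 4.86 CPM. Every 2h library lay above every 0h library, every 4h library above every 2h library, and every rev library below every 4h library and above every 0h library. Its log2 change was 1.31 ± 0.209 (SE) at 2h against 0h (adjusted p = 0.000389) and 2.10 ± 0.205 at 4h against 0h, or 4.3-fold (adjusted p = 1.65e-06). It rose by 0.80 ± 0.172 from 2h to 4h (adjusted p = 0.00646) and fell by 1.01 ± 0.184 from 4h to rev (adjusted p = 0.00158), and at rev it was still 1.10 ± 0.222 above 0h (adjusted p = 0.00427). The values rest on 6 to 28 counts per library at 0h and 44 to 98 at 4h. Within clone 4 the changes from 2h to 4h and from 0h to rev were 1.15 and 1.47 (adjusted p = 0.000381 and 0.00204). Within clone 8 they were 0.52 and 0.86 and did not pass (adjusted p = 0.0788 and 0.0552). Over both clones, the changes from 2h to 4h and from 0h to rev no longer passed with library totals (adjusted p = 0.218 and 0.109).
Cdk4 (ENSMUSG00000006728, chr10:127063534-127067920) lay between 102 and 156 CPM in the 16 libraries. Its largest log2 difference between groups in the model of both clones was 0.21 at 4h against 2h (adjusted p = 0.102), and its 4h libraries, at 134 to 156 CPM, lay above its 0h libraries without passing the test (0.14, adjusted p = 0.285). Within clone 4 it rose by 0.29 ± 0.108 from 2h to 4h (adjusted p = 0.0427). Of the summed RNA of the kinase pair per kb, Cdk6 made up 0.282% in clone 4 and 0.53% in clone 8 at 0h, and 1.67% and 1.58% at 4h. A share of 19.7% of the Cdk4 exon bases overlaps Tspan31 on the opposite strand, and the strand setting of the counting is not given in the sources used here, so reads of the overlap cannot be told apart.

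Among the D cyclins, Ccnd2 showed the largest rise, and at 4h it was high in clone 4 and low in clone 8. Ccnd2 (ENSMUSG00000000184, chr6:127125162-127152193) encodes cyclin D2. At 0h it had 2, 2, 2 and 1 counts, that is 0.40, 0.303, 0.208 and 0.144 CPM in clone 4 and then clone 8. At 2h it had 2.20, 0.968, 1.22 and 2.52 CPM, in the same order. At 4h it had 34.0 and 29.7 CPM in clone 4 but 1.81 and 1.84 CPM in clone 8. At rev it had 2.48 and 1.55 CPM in clone 4 and 0.908 and 2.05 CPM in clone 8. In CPM, all libraries of 2h, 4h and rev lay above all of 0h, and the clones did not overlap at 4h. Library 1 of clone 8 at rev had only 3 counts, so its 0.908 CPM lay at the floor used below. Since 0h lay under a floor of 3 counts per library, folds were taken against the CPM of 3 counts at 0h. They do not cover the counting error of either group. In clone 4, mean Ccnd2 was 3.01-fold this floor at 2h, 60.5-fold at 4h and 3.83-fold at rev. In clone 8 it was 5.04-fold, 4.92-fold and 3.98-fold. Over both clones 4h against 0h passed (adjusted p = 0.00021) while 2h against 0h did not (adjusted p = 0.0547), although the difference within each clone passed at 2h (adjusted p = 0.0252 in clone 4 and 6e-04 in clone 8). DESeq2 called 2h against 0h (adjusted p = 0.0149).
From 2h to 4h Ccnd2 rose by 4.31 ± 0.281 on the log2 scale in clone 4 (adjusted p = 1.87e-13), and in clone 8 the difference was -0.05 ± 0.38 (adjusted p = 0.957). The rise over both clones, 2.52 ± 0.56 (adjusted p = 0.00756), had an adjusted p of 0.0503 without library 2 of clone 4 at 2h. From 4h to rev it fell by 4.00 ± 0.256 in clone 4 (adjusted p = 4.31e-14) and in clone 8 the difference was -0.10 ± 0.474 (adjusted p = 0.948). Over both clones it fell by 2.91 ± 0.594 from 4h to rev (adjusted p = 0.00373).

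Ccnd3 and Ccnd1, the more abundant D cyclins, were lowest at 2h and rev in clone 4. Ccnd3 (ENSMUSG00000034165, chr17:47505051-47599691), which encodes cyclin D3, had 93.9, 87.3, 65.6 and 76.3 CPM at 0h and 63.4, 68.4, 56.1 and 54.6 CPM at 2h. It had 99.1, 115, 75.4 and 74.0 CPM at 4h and 67.7, 65.1, 63.6 and 67.7 CPM at rev. All 4h libraries lay above all 2h and all rev libraries, and 0h overlapped the other groups. Ccnd3 fell by 0.41 ± 0.0936 from 0h to 2h (adjusted p = 0.00598), rose by 0.56 ± 0.0935 from 2h to 4h (adjusted p = 0.0012) and fell by 0.44 ± 0.0948 from 4h to rev (adjusted p = 0.00566). These comparisons cross the split of the third principal component, while 4h against 0h, which does not, had a difference of 0.16 (adjusted p = 0.29). With library totals the 3 changes kept their direction but did not pass (adjusted p = 0.615, 0.412 and 0.107).
Ccnd1 (ENSMUSG00000070348, chr7:144929931-144939925), which encodes cyclin D1, passed no comparison of groups over both clones with TMM and the filter on low counts. It was lower at rev than at 4h and at 0h with library totals (-1.01 and -0.86, adjusted p = 0.00394 and 0.0296), and without the filter on low counts (-0.75 and -0.54, adjusted p = 2.16e-05 and 0.00866). Without that filter it was also called at 2h against 0h (-0.43, adjusted p = 0.0319) and at 4h against 2h (0.64, adjusted p = 0.000248). In clone 4 it had 15 and 27.7 CPM at 0h, 12.7 and 8.57 at 2h, 30.1 and 22.9 at 4h and 9.60 and 7.08 at rev. In clone 8 all 8 libraries lay between 17.3 and 25.4 CPM. Within clone 4 Ccnd1 fell by 1.03 ± 0.218 from 0h to 2h (adjusted p = 0.000681), rose by 1.34 ± 0.212 from 2h to 4h (adjusted p = 9.36e-06) and fell by 1.71 ± 0.212 from 4h to rev (adjusted p = 1.32e-07). In clone 8 the differences were 0.00, 0.09 and 0.12, with adjusted p of 0.994, 0.822 and 0.817. Of the Ccnd1 exon bases 23.4% overlap LTO1 on the opposite strand.
Per kb, the sum of the D cyclins in clone 4 was 14.9 CPM per kb at 0h, 9.96 at 2h, 21.2 at 4h and 9.54 at rev. In clone 8 it was 12.2, 10.6, 13.1 and 12.4. Ccnd3 was the main D cyclin throughout, with 57.5% to 79.3% of the sum in the means by clone and group. Ccnd2 made up 0.254% of the sum in clone 4 at 0h and 16% at 4h, against 0.156% and 1.48% in clone 8.

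**Figure D2:**
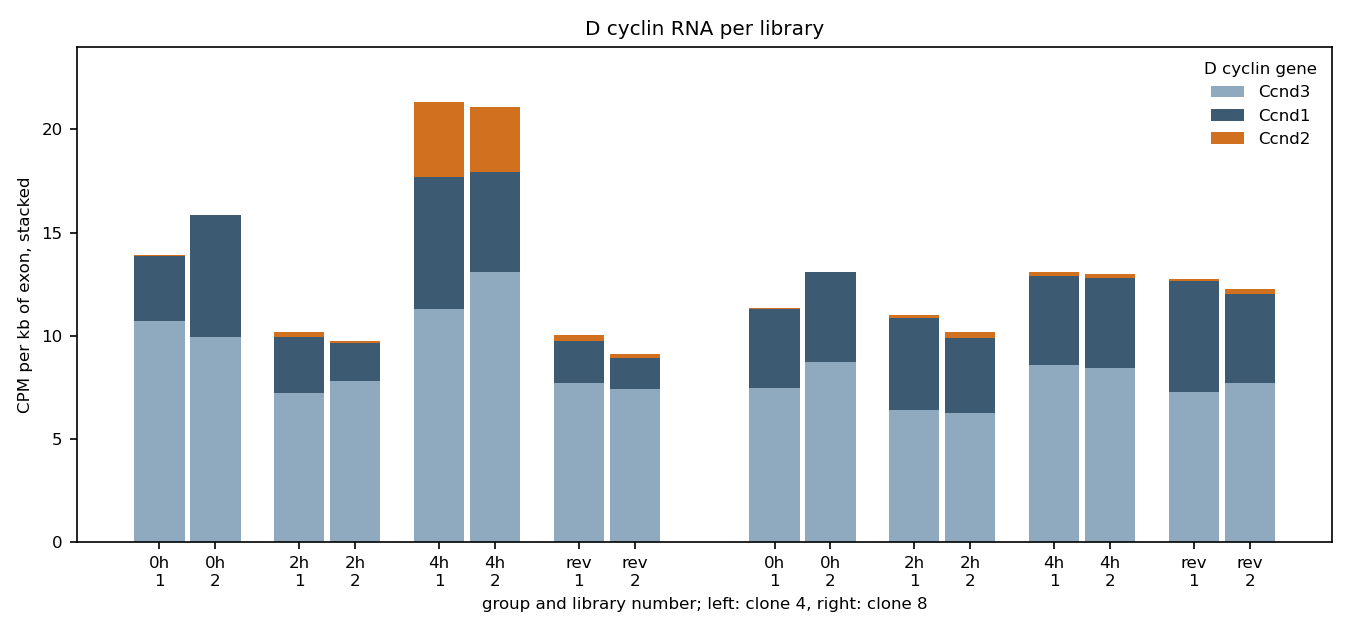
D cyclin RNA per library (vertical axis, CPM per kb of exon, stacked from 0) for Ccnd3, Ccnd1 and Ccnd2, with the 8 clone 4 libraries on the left and the 8 clone 8 libraries on the right, labelled by group and library number. The Ccnd2 segment is 15% and 17.0% of the stack in clone 4 at 4h and at most 2.64% in every other library.

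Of the E cyclins, Ccne2 was higher at 2h than at 0h in both clones, and Ccne1 went in opposite directions in the 2 clones from 0h to 2h. Ccne2 (ENSMUSG00000028212, chr4:11191351-11204779), which encodes cyclin E2, had 6.39, 7.43, 6.95 and 7.04 CPM at 0h and 11.7, 10.8, 10.6 and 10.9 CPM at 2h. It had 6.40, 4.32, 8.85 and 7.96 CPM at 4h and 7.57, 7.57, 9.08 and 8.44 CPM at rev. Every 2h library lay above all the others. Ccne2 rose by 0.65 ± 0.148 from 0h to 2h (adjusted p = 0.00532) and fell by 0.63 ± 0.147 from 2h to 4h (adjusted p = 0.0108), and 4h against 0h was 0.03 (adjusted p = 0.941). Within the clones its rise at 2h was 0.69 in clone 4 and 0.62 in clone 8 (adjusted p = 0.0118 and 0.0133). From 2h to 4h it fell by 0.99 in clone 4 (adjusted p = 0.000484), and in clone 8 the difference was -0.34 and did not pass (adjusted p = 0.235). Both changes lost the call with library totals (adjusted p = 0.116 and 0.104), and 17.4% of its exon bases overlap Ints8 on the opposite strand.
Ccne1 (ENSMUSG00000002068, chr7:38097984-38107534), which encodes cyclin E1, had 37.4 and 44.9 CPM at 0h in clone 4, 33.1 and 25.4 at 2h, 51.2 and 49.3 at 4h and 24.3 and 25.5 at rev. In clone 8 it had 37.6 and 37.4 CPM at 0h, 56.4 and 49.8 at 2h, 38.2 and 42.0 at 4h and 50.6 and 53.3 at rev. The clones did not overlap at 2h or rev, where clone 8 was higher, nor at 4h, where clone 4 was higher. From 0h to 2h Ccne1 fell by 0.50 ± 0.128 in clone 4 (adjusted p = 0.00456) and rose by 0.50 ± 0.112 in clone 8 (adjusted p = 0.002). From 4h to rev it fell by 1.01 ± 0.125 in clone 4 (adjusted p = 1.2e-07), and in clone 8 the difference was 0.39 ± 0.122 (adjusted p = 0.0532). Over both clones it passed no comparison, with 0.04 at 2h against 0h (adjusted p = 0.922). Ccne1 made up 77.2% to 92.5% of the E cyclin RNA per kb.

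Of the inhibitors, Cdkn1a was high at 2h and rev and low at 4h, and Cdkn1b fell, mostly in clone 4. Cdkn1a (ENSMUSG00000023067, chr17:29090976-29100727), which encodes p21 and is a classical target of p53, had 33.6, 30, 26.3 and 30.3 CPM at 0h and 60.9, 72.0, 35.6 and 36.2 CPM at 2h. It had 14.9, 21.8, 22.5 and 22.2 CPM at 4h and 64.2, 61.6, 46.6 and 46.8 CPM at rev. Every 2h and rev library lay above every 0h library, and every 4h library below. Cdkn1a rose by 0.72 ± 0.164 from 0h to 2h (adjusted p = 0.00555), fell by 1.25 ± 0.171 from 2h to 4h (adjusted p = 0.000249) and rose by 1.39 ± 0.173 from 4h to rev (adjusted p = 4.62e-05). At rev it was 0.86 ± 0.166 above 0h (adjusted p = 0.0032), but not when library totals set the scale (adjusted p = 0.127). The 4h level against 0h, -0.53 ± 0.178, did not pass (adjusted p = 0.0528), and DESeq2 called it (adjusted p = 0.0347). Within clone 4 this difference passed at -0.84 ± 0.153 (adjusted p = 8.46e-05). Within clone 8 it was -0.33 ± 0.135 and did not pass (adjusted p = 0.163). The rise from 0h to 2h was 1.07 in clone 4 and 0.35 in clone 8 (adjusted p = 1.01e-07 and 0.0446). The groups split as on the third principal component, with the 2h and rev libraries at 35.6 to 72.0 CPM and the 0h and 4h libraries at 14.9 to 33.6 CPM.
Of 20 other p53 targets 19 were tested. At 2h against 0h 12 were higher and none lower, with a median log2 change of 0.43 against 0.003 over all genes, led by Mdm2, the ligase that degrades p53 (0.77, adjusted p = 7.3e-06), Plk2 (1.16) and Pmaip1 (1.85). From 2h to 4h none of them rose and 9 fell (median -0.32), among them Mdm2 (-0.83), Plk2 (-0.99) and Btg2 (-0.84). From 4h to rev 8 rose and 1 fell (median 0.32), with Mdm2 at 0.54, Plk2 at 0.68, Sesn1 at 0.84 and Gadd45a, which fell, at -0.77. At 4h against 0h 5 were higher and 3 lower (median 0.13).

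Cdkn1b (ENSMUSG00000003031, chr6:134920401-134925513), which encodes p27, had 34.6 and 30.8 CPM at 0h in clone 4, 15.7 and 15.3 at 2h, 11.5 and 11.2 at 4h and 15.5 and 16.7 at rev. In clone 8 it had 57.8 and 55.3 CPM at 0h, 50.4 and 47.9 at 2h, 42.7 and 41.0 at 4h and 49.0 and 48.1 at rev. In each clone the 0h libraries were the highest and the 4h libraries the lowest, and every clone 8 library lay above every clone 4 library. Over both clones Cdkn1b fell by 0.60 ± 0.149 from 0h to 2h (adjusted p = 0.00949) and by 0.89 ± 0.155 from 0h to 4h (adjusted p = 0.000802), and it was 0.60 lower at rev than at 0h (adjusted p = 0.0163). Within clone 4 it fell by 1.07 ± 0.129 from 0h to 2h and by 1.52 ± 0.143 from 0h to 4h (adjusted p = 1.82e-07 and 4.67e-10). Within clone 8 the fall of 0.43 ± 0.102 from 0h to 4h passed (adjusted p = 0.00835) and the difference of -0.21 ± 0.0964 from 0h to 2h did not (adjusted p = 0.15). The rev against 0h call was lost without library 1 or library 2 of clone 4 at 0h or without library 1 of clone 4 at rev (adjusted p = 0.0624, 0.0532 and 0.056), and with library totals the 2h call was lost (adjusted p = 0.254).
The balance of the 2 CIP/KIP inhibitors differed between the groups, most in clone 4, with the largest Cdkn1a shares at 2h and rev. Cdkn1a made up 55.5% of their summed RNA per kb in clone 4 at 0h, 84.5% at 2h, 67.0% at 4h and 83.3% at rev. In clone 8 it made up 39.0%, 48.4%, 40.6% and 55.2%. There its share at 4h, 40.3% to 40.9%, lay within its range at 0h, 36.8% to 41.3%. Their sum was lowest at 4h, with 7.66 CPM per kb in clone 4 and 15.5 in clone 8, against 16.1 and 20.4 at 0h.
Cdkn2c (ENSMUSG00000028551, chr4:109660876-109667189), which encodes p18, had 1 to 14 counts per library, between 0.254 and 1.82 CPM, and was not tested. Over both clones its groups overlapped in every comparison. Within the clones, both 2h libraries lay above both 0h libraries in clone 4 and below them in clone 8. Of the 4 other CIP/KIP and INK4 genes, Cdkn1c, which encodes p57, rose by 1.62 from 0h to 2h (adjusted p = 0.000929), fell by 1.34 from 2h to 4h (adjusted p = 0.00493) and rose by 1.67 from 4h to rev (adjusted p = 0.000774). Cdkn2d, which encodes p19, fell by 0.68 from 0h to 2h (adjusted p = 0.0444), and Cdkn2a and Cdkn2b passed none of these comparisons.

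The response to induction differed between the clones for 4 of the 9 members at 2h against 0h, where 7.94% of all genes differed. The difference, clone 8 minus clone 4, was 1.03 ± 0.283 for Ccnd1 (adjusted p = 0.0192), 1.00 ± 0.171 for Ccne1 (adjusted p = 0.000219), 0.86 ± 0.161 for Cdkn1b (adjusted p = 0.000655) and -0.72 ± 0.175 for Cdkn1a (adjusted p = 0.00832). At 4h against 0h 1 member differed, Cdkn1b, by 1.08 ± 0.178 (adjusted p = 9.36e-05), with 5.72% of all genes. For Ccnd2 this difference was -3.25 ± 1.39 and did not pass (adjusted p = 0.211), with no more than 2 counts in any 0h library, while at 4h itself the difference of clone 8 from clone 4 was -4.13 ± 0.269 (adjusted p = 9.15e-14). At rev against 4h 5 members differed, with 13.2% of all genes. They were Ccnd2 (3.90 ± 0.609, adjusted p = 3.23e-05), Ccnd1 (1.84 ± 0.293, adjusted p = 4.53e-05), Ccne1 (1.40 ± 0.175, adjusted p = 1.11e-06), Cdkn1a (-0.77 ± 0.195, adjusted p = 0.00669) and Ccnd3 (0.50 ± 0.15, adjusted p = 0.0236). All 4 genes with a positive value fell from 4h to rev in clone 4, while in clone 8 the differences were -0.10 for Ccnd2, -0.18 for Ccnd3, 0.12 for Ccnd1 and 0.39 for Ccne1, of which none passed.
Leaving out 1 library moved these counts and those over all genes, and it leaves a single library of that clone in that group. Without library 2 of clone 4 at 0h or at 2h, 2 members differed at 2h against 0h, and the Ccnd1 difference was 0.50 without the former (adjusted p = 0.389). Without library 2 of clone 4 at 4h, 2 members differed at 4h against 0h. Without library 2 of clone 8 at rev, 3 differed at rev against 4h, with Ccnd2 at 3.01 (adjusted p = 0.132), and without library 1 of clone 4 at 4h the Cdkn1a value was -0.46 (adjusted p = 0.23). With library totals the Ccnd3 difference turned to -0.16 (adjusted p = 0.765), that of Cdkn1a at 2h against 0h was -0.14 (adjusted p = 0.805) and that of Ccne1 at rev against 4h was 0.74 (adjusted p = 0.146), so that none of the 3 passed. DESeq2 did not call the Ccnd1 difference at 2h against 0h (adjusted p = 0.0585). Library totals moved the median clone difference of all genes to 0.56 in 2h against 0h and to -0.667 in rev against 4h, and the share of called genes with a positive difference from 36.9% to 94.5% and from 47.8% to 6.22%. The difference between the clones in 4h against 2h was not tested. The ERK feedback and immediate-early genes had smaller median changes in clone 8 as well, 1.36 against 2.86 in clone 4 from 0h to 2h and -1.02 against -2.02 from 4h to rev, and their part in the members' differences was not tested.
For the changes within a clone named above, the shares of all genes called in clone 4 were 23.7% from 0h to 2h, 20.5% from 0h to 4h, 29.2% from 2h to 4h and 26.4% from 4h to rev. In clone 8 they were 15.8%, 5.21%, 7.95% and 5.75%. The shares from 0h to rev within a clone were not counted in this fit.

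**Figure D3:**
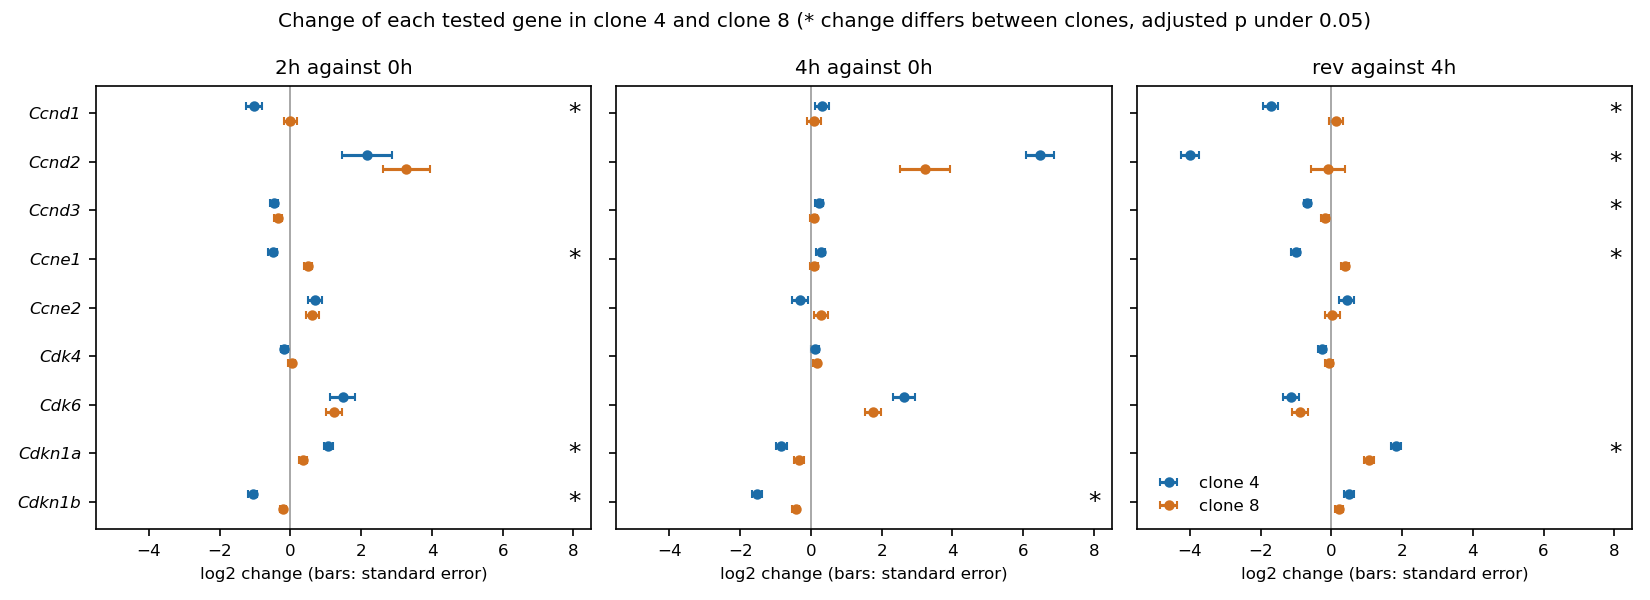
Log2 change of the 9 tested genes (horizontal axes, points; bars are the standard error) in clone 4 (blue) and clone 8 (orange) from 0h to 2h (left), from 0h to 4h (middle) and from 4h to rev (right), with an asterisk where the change differed between the clones. Ccne1 has its points on opposite sides of 0 at 2h and at rev, and the Ccnd2 points against 0h are fitted values that depend on a group at no more than 2 counts.

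Averaged over the groups, 5 of 9 members were higher in clone 8 than in clone 4 and 3 were lower, where 21.7% and 21.6% of all genes were called. The largest difference was that of Cdkn1b, 1.48 ± 0.06 or 2.8-fold (adjusted p = 1.18e-19), and it was 0.80 at 0h, 1.66 at 2h, 1.88 at 4h and 1.59 at rev. Cdk6 (0.49), Ccnd1 (0.41), Ccne1 (0.36) and Cdk4 (0.17) were also higher in clone 8, and Ccnd2 (-1.25), Cdkn1a (-0.29) and Ccnd3 (-0.28) were lower. The clone differences varied between the groups. That of Ccnd1 was -0.19 at 0h, 0.84 at 2h, -0.41 at 4h and 1.42 at rev, and passed at 2h and rev. That of Ccne1 was -0.14, 0.86, -0.34 and 1.07 in the same order and passed at 2h, 4h and rev, so that Ccne1 was lower in clone 8 at 4h (adjusted p = 0.0406). That of Ccnd2 was 0.24 at 2h, -4.13 at 4h and -0.23 at rev and passed at 4h of these, and that of Cdkn1a was -0.89 at 2h, which passed, and 0.34 at 4h, which did not (adjusted p = 0.106). Within a group, 11.7% of all genes differed between the clones at 0h, 30.4% at 2h, 24.2% at 4h and 24.5% at rev. Cdkn1b and Ccnd2 lie on chromosome 6, where the 624 tested genes had a median difference of 0.18 between the clones and 67.0% were higher in clone 8, against -0.01 and 48.1% on the other chromosomes. The difference of Cdkn1b at 0h lay above the upper quartile of chromosome 6 at 0h, 0.58, and Ccnd2 differed in the other direction. The part of chromosome 6 in these differences was not tested.

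**Figure D4:**
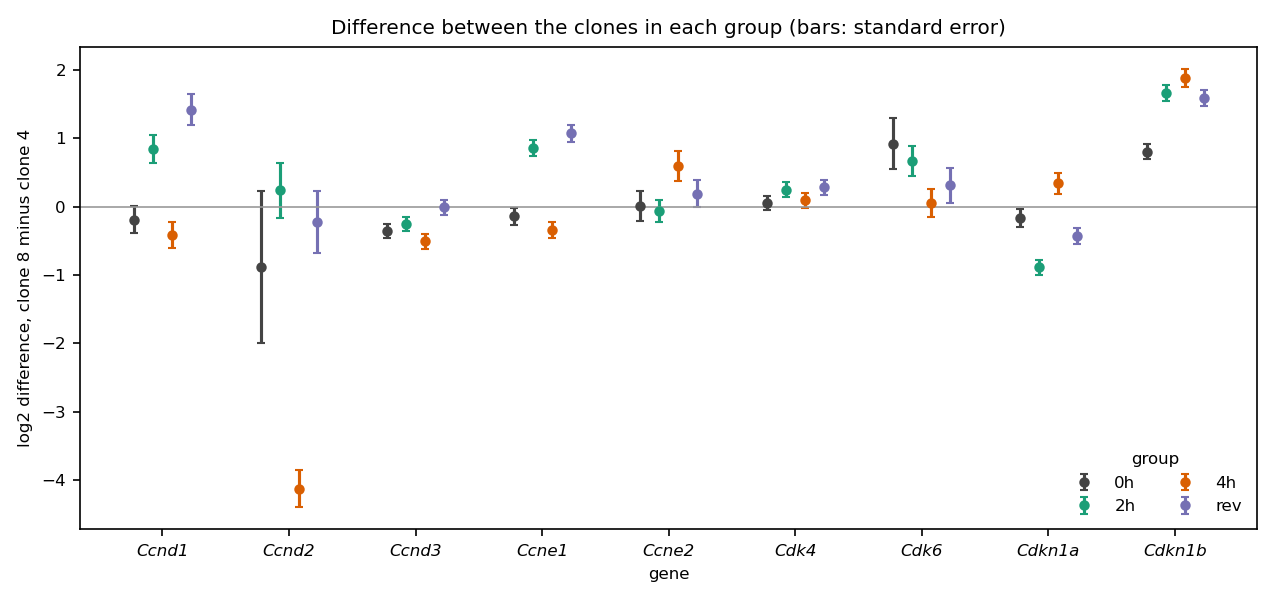
Log2 difference between clone 8 and clone 4 (vertical axis, bars are the standard error) for the 9 tested genes (horizontal axis) in each group (colours). Cdkn1b lies above 0 in all groups, from 0.80 to 1.88, and Ccnd2 at 4h lies at -4.13.

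None of the 9 was called at rev against 2h by edgeR, where 0.769% of all genes were called higher and 1.01% lower, so that a count of 0 among 9 genes does not set the members apart. DESeq2 called none either. Every rev library of Ccne2 lay below every 2h library, and it was the 1 member with an unadjusted p under 0.05 (-0.43 ± 0.145, adjusted p = 0.148). In this comparison, which was added after values had been seen and lies within the split of the third principal component, 8 of the 15 ERK feedback and immediate-early genes were lower at rev, with a median of -1.51. The members' differences were -0.07 for Ccnd1, -0.39 ± 0.708 for Ccnd2, 0.13 for Ccnd3, -0.15 for Ccne1, 0.04 for Cdk4, -0.21 for Cdk6, 0.14 for Cdkn1a and 0.00 for Cdkn1b. Within clone 8 Cdkn1a was 0.38 higher at rev, which did not pass in the fit that holds both clones (adjusted p = 0.0826). In a separate fit of clone 8 alone the same difference passed (adjusted p = 0.037).

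The lists of other genes of the pathway are to be read against the shares of all genes called, 9.49% higher and 7.48% lower at 2h against 0h, 7.35% and 5.56% at 4h against 0h, and 4.5% and 5.1% at rev against 4h. Of 24 E2F target genes of S phase, which encode the replication machinery, 1 rose at 2h against 0h (Slbp, 0.67) and 1 fell (Tk1, -0.53), and at 4h against 0h 1 rose (Pcna, 0.35) and 1 fell (Rrm2, -0.31), with medians of 0.01 and 0.04. At rev against 4h only Mcm10 was called, and it was lower (-0.30). Of 14 pocket proteins and E2F factors, 3 rose at 2h against 0h (Rb1, 0.51, Lin54, 0.42, and E2f8, 0.37) and 3 rose at 4h against 0h (E2f6, 0.91, E2f8, 0.74, and E2f4, 0.60), with none lower in either. At rev against 4h Rb1 rose (0.75) and E2f4 (-0.53) and E2f8 (-0.57) fell. Of 13 other tested kinases, cyclins, partners and activators, Ccng1 (0.76), Ccny (0.46) and Ccna2 (0.24) rose at 2h against 0h. In that comparison Cdk2, the partner of the E cyclins, fell by 0.49, and none of the 13 was called at 4h against 0h. Of these 13, 1 rose at rev against 4h and none fell. Ccng1 is also on the list of p53 targets. Of 12 genes of cyclin and inhibitor turnover, 4 rose and 2 fell at 2h against 0h, and at 4h against 0h Skp2, which targets p27 for degradation, rose by 0.49 (adjusted p = 0.0131) and Fbxo31 fell by 0.35. At rev against 4h 1 of the 12 rose and 2 fell, among them Skp2 by 0.57 (adjusted p = 0.00688). Of 20 genes of G2 and mitosis, 3 rose and 2 fell at 2h against 0h, none rose and 3 fell at 4h against 0h, and none was called at rev against 4h.

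For members called in a comparison of groups, the genes with the most similar pattern were found by Pearson's r of log2 CPM over the 16 libraries, after the mean of each clone was removed. For Ccnd2 these were Snai3 (r = 0.964), Trim44 (0.947) and Ptp4a2 (0.947). For Cdk6 they were Tns3 (0.973), Zbtb2 (0.962) and Trim71 (0.956), and for Cdkn1a they were Rhob (0.938), Rb1 (0.934) and Ulk1 (0.934). For Cdkn1b they were Lrig3 (0.927), Cdh1 (0.924) and Pbxip1 (0.921), for Ccnd3 Zfp598 (0.919), Slc25a37 (0.916) and Slc29a3 (0.909), and for Ccne2 Dgke (0.903), Il6st (0.896) and Mybl1 (0.889). The libraries of a group share their treatment and, within a clone, their cells, so the 16 points are not independent.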

How the data were processed

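Gene counts were deposited as 1 table of raw read counts per gene. The submitters' processing notes name bcl2fastq 2.19.1, STAR 2.5.3a and the genome build mm10, which is GRCm38. The counting program, its annotation and its strand setting are not given in the sources used here. Of 52636 identifiers, 52489 matched GENCODE M21, which gave symbols, coordinates, exon lengths and overlaps, and 147 did not.

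Genes were kept by edgeR's filterByExpr (minimum count 10, minimum total 15), which left 12742. Counts were scaled by TMM and tested with the quasi-likelihood test of edgeR 4.0.16 in R 4.3.3, with group and clone as terms over all 16 libraries, and p-values were adjusted by Benjamini-Hochberg over all 12742 genes. Differences between the clones and changes within a clone came from a second fit with 1 mean for each of the 8 pairs of clone and group. Standard errors were taken from the log2 change and its F statistic. CPM used the TMM-scaled totals of the kept genes, and log2 CPM a prior count of 2. The scripts were tested on simulated data. Alternatives were DESeq2 1.42.0, its size factors, library totals, other filters, no clone covariate, each clone alone, a replicate block and leaving out each library. All 10 members were named, and from each list of other genes at most 3 called genes per direction and comparison. The members, lists and tests were chosen with earlier results of these data known.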

Additional observations from a re-analysis of the deposited data

Results flagged for a closer look

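Among 40 sets of 4 libraries, 1 per member and group, 3 had a library set apart from the other 3. Chance would give about 2 (1 in 20) if the 4 libraries came from 1 population. Each set joins libraries of both clones, and most members differed between the clones, so that number is only a rough guide. The measure is the gap to the nearest library as a share of the range, against Dixon's 95% critical value. For Ccne1 at 0h it was 0.973, with library 2 of clone 4 at 44.9 CPM and the others at 37.4 to 37.6 CPM. For Cdkn1a at 4h it was 0.911, with library 1 of clone 4 at 14.9 CPM and the others at 21.8 to 22.5 CPM. For Cdk4 at 4h it was 0.892, with library 2 of clone 8 at 156 CPM and the others at 134 to 136 CPM.

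Over the 9 tested members and 3 comparisons, 10 differences between the clones passed, given as the log2 change in clone 8 minus that in clone 4. From 0h to 2h they were 1.03 for Ccnd1, 1.00 for Ccne1, 0.86 for Cdkn1b and -0.72 for Cdkn1a. From 0h to 4h there was 1, of 1.08 for Cdkn1b. From 4h to rev they were 3.90 for Ccnd2, 1.84 for Ccnd1, 1.40 for Ccne1, 0.50 for Ccnd3 and -0.77 for Cdkn1a.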

How the results depend on the processing

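Of 2312 single-gene values under the alternatives, 2206 kept their side of the threshold, among them values that passed in neither fit and changed sign near 0. A further 54 lost a call, 46 gained one and 6 turned direction with a call in at least 1 fit. Library totals moved the median of all genes by more than 0.1, to 0.106 at 2h against 0h, -0.141 at 4h against 2h, -0.199 at rev against 4h, -0.236 at rev against 0h, -0.347 at rev against 2h and 0.348 for the clone difference at 4h against 0h, and changes are relative to that. The share of called genes that were higher went from 55.9% to 78.0% at 2h against 0h, from 46.9% to 16% at rev against 4h, from 52.7% to 23.8% at rev against 0h, from 43.2% to 8.28% at rev against 2h and from 50.2% to 65.9% between the clones. With library totals 3 members were called at 2h against 0h and 2 at 4h against 2h, with 446 and 385 of all 12742 genes. Then 3 members differed between clones in rev against 4h and 5 on average over the groups, with 1913 and 3231 of all genes. The clone difference of Ccnd3 in rev against 4h turned to -0.16 and did not pass. Without the low-count filter 5 were called at rev against 0h, with 1488 of 31994 genes. Without the clone term 3 were called at 2h against 0h, 3 at 4h against 2h and 1 at rev against 0h. Cdkn1b lost its calls, and 757, 266 and 273 of all 12742 genes were called, in that order. Clone 4 alone called 8 at 2h against 0h (Ccne1 at -0.50), 7 at rev against 4h and 7 at rev against 0h. Of all 12759 genes it called 2640, 3142 and 2140, in that order. Clone 8 alone called 3 at 4h against 2h and 1 at rev against 2h, with 1238 and 448 of 12831 genes. At 4h against 2h Ccne1 was called at -0.41, and Ccnd2 at -0.05 did not pass. Ccne1 was at 0.39 in rev against 4h and 0.48 in rev against 0h. The cause was not tested. Leaving out 1 library gave 2 to 4 clone-dependent members at 2h against 0h, 1 to 2 at 4h against 0h and 3 to 5 at rev against 4h. The replicate block left 5 members called at 2h against 0h, 3 at 4h against 0h, 5 at 4h against 2h, 4 at rev against 4h and 3 at rev against 0h. Of all 12742 genes it called 1834, 1325, 1108, 912 and 1027, in that order. Libraries with the same number did not deviate together once clone and group means were removed (r = -0.0106), so the numbers do not pair them. Ccnd2 could not be tested at a minimum count of 30. Depth limits Ccnd2 at 0h and Cdkn2c throughout, where 3 counts came to 0.21 to 0.908 CPM.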
